A study of Mus musculus with 12 samples.

Results

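The interferon-response genes described here were 38 mouse genes that interferons are known to induce. They were chosen by name, with earlier results of these data known. Of the 38, 35 had at least 1 probe, 47 probes in all, among 17174 genes named on the array. Mx1, Mx2 and Dtx3l were matched to no probe and were not analysed here. All 35 were well above background on the 3 arrays of at least 1 group and were tested.

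Interferons are secreted proteins that bind receptors on the cell surface and, through JAK kinases, activate transcription factors such as STAT2 and IRF9. Type I and type III interferons act mostly through the interferon-stimulated response element (ISRE), and the type II interferon, IFN-gamma, through the gamma-activated site (GAS). In epithelia such as those of lung and mammary gland the induced genes encode sensors of foreign RNA, proteins that block viral replication, GTPases that attack the vacuoles of intracellular pathogens, and the machinery that prepares peptides for display to T cells.

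The arrays held RNA of mouse epithelial cells in 4 groups of 3: adult lung and adult mammary gland, and the same organ names labelled reprogrammed. Adult donors were female mice of 10 weeks, whose organs were digested with trypsin and collagenase and enriched for epithelium by repeated centrifugation, with no cell sort described. The protocol text, the same for all samples, also describes embryonic lung epithelium and mesenchyme and the preparation of single cells in Matrigel, a basement membrane gel, for transplantation. Whether the organ in a reprogrammed label is the source of the cells or the tissue they formed is not given, nor are strain and genotype. Nothing states that arrays came from separate animals, so the p-values measure only the spread between arrays, which may be technical.

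Each level is the log2 of the signal of a probe, with the 75th percentile of its array set to 0, so a difference of 1 is a doubling. Levels were compared only for the same probe. On 10 of the 12 arrays 71.7% to 77.5% of probes were well above background, while on adult mammary 4 and reprogrammed lung 1 the share was 89.1% and 91.1% and the signals spanned a narrower range (7.11 and 6.10 log2 units from the 10th to the 90th percentile, against 8.46 to 9.13). The summed signal of 6 lung epithelial markers (Sftpc, Sftpb, Sftpa1, Scgb1a1, Ager and Nkx2-1) was 437 to 556 times the 75th percentile in adult lung, 0.708 to 2.74 in reprogrammed lung and 0.719 to 0.887 in adult mammary. For 7 mammary epithelial markers the sum was 1.60 to 5.46 in adult lung, 20.2 to 257 in reprogrammed lung and 83.5 to 125 in adult mammary. The lung markers thus went against a lung identity of the reprogrammed lung arrays, and that name is used here only as the label gives it.

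Of the 38 genes, 30 had promoter windows in the RefSeq table (GRCm38.p6), which run from 250 bases before to 50 bases after an annotated start. The ISRE core, GAAA, any 2 bases and GAAA on either strand, was found in 15 of these 30 genes, while 3.99% of all 27025 genes with a window held it. The GAS, TTCNNNGAA, which reads the same on both strands, was found in 10 of the 30, against 9.55% of all genes, and in Bst2 and Ifitm3 it overlapped an ISRE match. The 7 windows shown are Isg15, the namesake of the class, and the 6 genes that had a window and passed the test in some comparison. Each is the 250 bases before the start, 5′ to 3′ toward the gene, with ISRE and GAS matches in capitals. They lie at chr4:156200819-156201068, minus strand (Isg15); chr19:34583279-34583528, plus strand (Ifit3); chr5:120907526-120907775, minus strand (Oas1a); and chr17:34197945-34198194, plus strand (Psmb8). The others lie at chr7:141266425-141266674, minus strand (Irf7), chr5:114922990-114923239, plus strand (Oasl1) and chr11:72301379-72301628, plus strand (Xaf1).
Isg15: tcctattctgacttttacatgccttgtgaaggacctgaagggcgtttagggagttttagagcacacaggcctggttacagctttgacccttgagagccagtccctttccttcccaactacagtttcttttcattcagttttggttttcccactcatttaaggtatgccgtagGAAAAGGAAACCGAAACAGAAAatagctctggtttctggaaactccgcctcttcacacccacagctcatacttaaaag
Ifit3: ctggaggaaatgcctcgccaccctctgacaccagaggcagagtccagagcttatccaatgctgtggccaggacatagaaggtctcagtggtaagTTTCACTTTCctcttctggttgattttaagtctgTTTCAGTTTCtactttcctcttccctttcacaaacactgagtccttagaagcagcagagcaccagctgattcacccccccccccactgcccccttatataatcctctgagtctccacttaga
Oas1a: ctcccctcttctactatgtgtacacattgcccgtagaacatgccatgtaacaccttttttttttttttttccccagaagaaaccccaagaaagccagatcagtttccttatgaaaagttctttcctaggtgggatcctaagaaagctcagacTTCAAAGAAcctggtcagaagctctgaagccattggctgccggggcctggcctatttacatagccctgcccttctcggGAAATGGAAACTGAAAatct
Psmb8: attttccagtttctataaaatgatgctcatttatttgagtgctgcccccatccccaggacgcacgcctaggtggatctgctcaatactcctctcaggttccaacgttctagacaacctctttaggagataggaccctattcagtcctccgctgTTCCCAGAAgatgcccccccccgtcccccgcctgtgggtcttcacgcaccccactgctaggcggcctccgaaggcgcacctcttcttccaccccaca
Irf7: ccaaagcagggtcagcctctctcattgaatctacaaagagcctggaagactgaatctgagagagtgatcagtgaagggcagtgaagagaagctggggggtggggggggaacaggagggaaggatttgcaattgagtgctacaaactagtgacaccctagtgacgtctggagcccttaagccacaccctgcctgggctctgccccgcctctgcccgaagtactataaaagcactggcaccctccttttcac
Oasl1: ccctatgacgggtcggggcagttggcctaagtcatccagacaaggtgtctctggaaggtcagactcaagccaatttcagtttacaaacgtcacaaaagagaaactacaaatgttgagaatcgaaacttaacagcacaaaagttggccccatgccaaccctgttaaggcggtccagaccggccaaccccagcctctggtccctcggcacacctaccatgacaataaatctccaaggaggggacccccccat
Xaf1: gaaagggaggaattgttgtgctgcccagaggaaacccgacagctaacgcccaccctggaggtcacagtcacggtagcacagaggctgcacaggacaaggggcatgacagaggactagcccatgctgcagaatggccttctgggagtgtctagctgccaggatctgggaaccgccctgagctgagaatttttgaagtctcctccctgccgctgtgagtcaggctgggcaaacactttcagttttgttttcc
Isg15 held 3 overlapping ISRE matches, with first bases at -78, -72 and -66 from the start. Ifit3 held 2 on the opposite strand, at -156 and -122. Oas1a held 2 overlapping ISRE matches, at -20 and -14, and a GAS at -98. The only match in Psmb8 was a GAS at -97, and the windows of Irf7, Oasl1 and Xaf1 held neither string. A match is a string of letters and not a bound site.

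**Figure D1:**
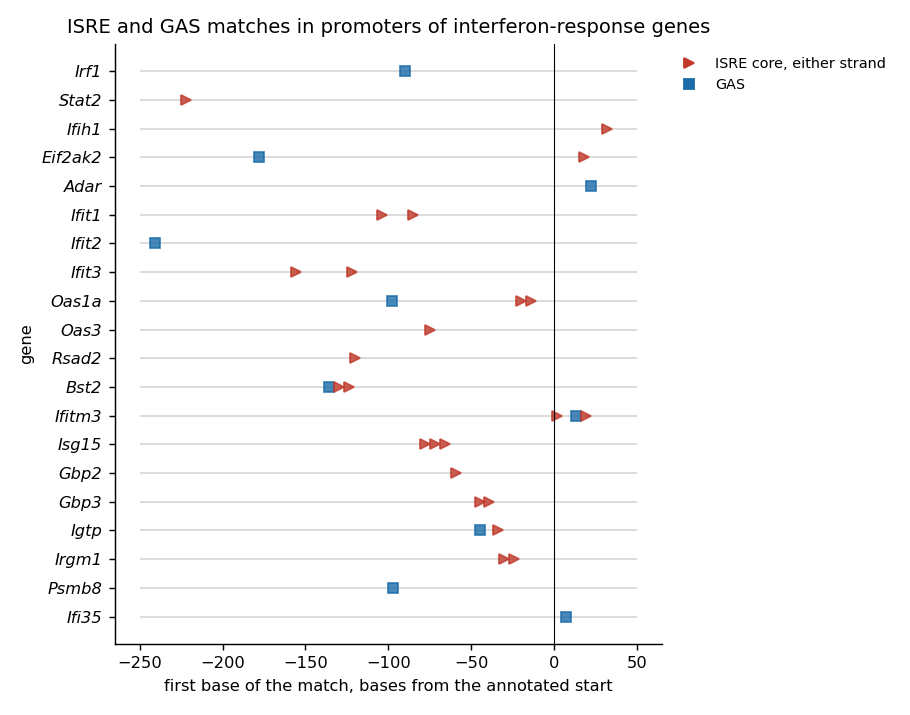
ISRE (triangles) and GAS (squares) matches in the promoter windows of the 20 interferon-response genes with at least 1 match, by distance in bases from the annotated start. The ISRE matches of Eif2ak2, Ifih1 and Ifitm3 lay after the start and those of the other genes before it.

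Iigp1, a GTPase, was the gene of the class that differed most between the groups: it was lowest in adult lung and highest in reprogrammed mammary. Most of the other genes did not pass the test. With limma over all 4 groups, 6 of the 35 genes (17.1%) had a Benjamini-Hochberg adjusted p under 0.05 (the threshold used throughout), against 25.7% of the 24497 features tested. They were Iigp1, Xaf1, Irf7, Ifit3, Parp9 and Psmb8. The pairwise comparisons added Oas1a, Oasl1 and Zbp1.

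**Figure D2:**
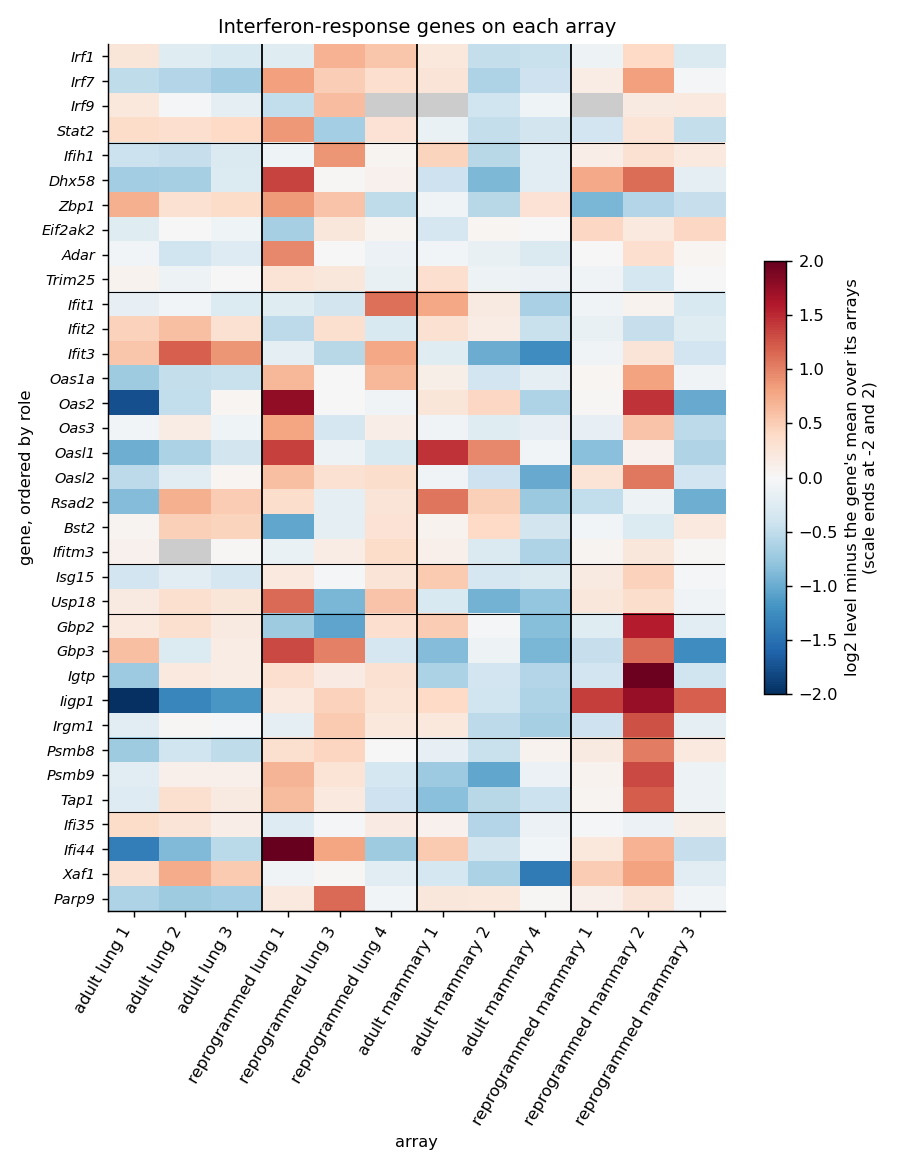
Level of each of the 35 interferon-response genes (rows, ordered by role) on each of the 12 arrays (columns, 3 a group), as log2 minus that gene's mean over its arrays. Grey cells have no value because the spot was an outlier. Iigp1 was lowest on the adult lung arrays, and reprogrammed mammary 2 was high for most GTPases and for the antigen-processing genes.

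Adult lung was compared with adult mammary. Ifit3 and Xaf1 were higher in lung, and Iigp1, Parp9 and Oasl1 were lower, which makes 5 of 35 genes (14.3%) where 28.5% of all features passed (12.5% higher and 15.9% lower). The median difference of the genes was 0.16, against 0.00 for all features, and with the slide as a block it was -0.21. The arrays of the 2 groups did not overlap for 8 genes higher and 5 lower in lung, against 24.8% and 28% of all features. Leaving out any adult lung or reprogrammed mammary array, adult mammary 1 or adult mammary 2 brought the calls to 3. The cell make-up moved with this comparison too: the summed signal of 7 endothelial markers was 144 to 167 times the 75th percentile in adult lung and 18.5 to 41.6 in adult mammary, and that of 7 epithelial markers 17.8 to 24.1 and 194 to 256, and their part in the result was not tested.

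Reprogrammed lung was compared with adult lung, its match by organ name. Iigp1, Irf7, Parp9, Oas1a and Psmb8 rose, 5 of 35 genes (14.3%), and none fell, where 23.4% of all features passed (14.1% higher and 9.31% lower). The median difference was 0.26, against 0.10 for all features. Groups did not overlap for 10 genes higher and 1 lower, against 21.2% and 15.1% of all features. The count was 3 without adult mammary 4 and reprogrammed lung 1 together, and also 3 without reprogrammed lung 1 alone or any 1 adult lung array. The marker sums given for adult lung were 38.7 to 48.2 (endothelial) and 31.1 to 185 (epithelial) in reprogrammed lung, with all 7 of each list above background on every array, and their part in the result was not tested. In such bulk samples fewer cells of a type and less RNA per cell cannot be told apart.

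Reprogrammed mammary against adult mammary gave 0 calls among the genes (limma), where 0.00408% of all features passed. With array weights 1 gene was called, and the share of all features called in that fit is not given here. In the reported fit 8 of the 35 genes had an unadjusted p under 0.05, against 10% of all features. The median difference was 0.37, against 0.02 for all features, and 27 of 35 differences were above 0. Without reprogrammed mammary 2 the median was 0.14 and 22 of 35 differences were above 0. Groups did not overlap for 10 genes higher and 0 lower, against 12.4% and 10.9% of all features. The smallest p values belonged to Iigp1 (1.65 ± 0.32, adjusted p = 0.172, limma), Xaf1 (1.16 ± 0.31, adjusted p = 0.273, limma), Tap1 (1.00 ± 0.36, adjusted p = 0.402, limma), Psmb9 (1.06 ± 0.40, adjusted p = 0.419, limma) and Dhx58 (1.07 ± 0.41, adjusted p = 0.421, limma), and all 5 missed the threshold.

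Between the reprogrammed groups 0 genes passed (limma), with 0.00408% of all features called. At an unadjusted p under 0.05 were 2 genes, against 9.59% of all features. The median difference, lung minus mammary, was 0.10, against 0.06 for all features, and -0.04 against -0.08 when each array was centred on its median. Iigp1 was the 1 gene whose groups did not overlap, lower in lung, where 7.01% of all features were higher and 6.23% lower without overlap. Its difference of 1.13 ± 0.32 missed the threshold (adjusted p = 0.322, limma), as did the next 4 genes by p: Zbp1 (0.96 ± 0.34, adjusted p = 0.430, limma), Eif2ak2 (0.47 ± 0.23, adjusted p = 0.564, limma), Gbp2 (0.85 ± 0.53, adjusted p = 0.651, limma) and Oasl1 (0.76 ± 0.49, adjusted p = 0.659, limma), of which Eif2ak2 and Gbp2 were lower in lung and Zbp1 and Oasl1 higher. Without reprogrammed lung 4, 1 gene passed, in a fit whose share of all features called is not given here.

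The last 2 comparisons cross the organ names. Reprogrammed lung against adult mammary gave 0 calls (limma), with 0.0122% of all features called. At an unadjusted p under 0.05 were 6 genes, against 11.8% of all features. Its median difference was 0.44, against 0.09 for all features, and 6 genes were higher and 0 lower without overlap (6.52% and 4.91% of all features). The smallest p values, none past the threshold, were those of Irf7 (0.81 ± 0.28, adjusted p = 0.332, limma), Oasl2 (0.92 ± 0.35, adjusted p = 0.371, limma), Dhx58 (0.99 ± 0.41, adjusted p = 0.390, limma), Ifit3 (0.83 ± 0.37, adjusted p = 0.421, limma) and Xaf1 (0.70 ± 0.31, adjusted p = 0.422, limma), all higher in reprogrammed lung.

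Reprogrammed mammary against adult lung gave 4 calls (11.4%), with Iigp1, Psmb8 and Irf7 higher and Zbp1 lower, where 26.1% of all features passed (14.9% higher and 11.2% lower). In all, 11 genes were higher and 5 lower without overlap, against 31.2% and 26% of all features. The median difference was 0.21, against 0.04 for all features, and without reprogrammed mammary 2 it was -0.03. The count of calls was 1 without adult lung 1, 9 without reprogrammed lung 1, 7 without reprogrammed lung 3 and 6 without reprogrammed lung 4. It was 2 without adult lung 2, adult lung 3, reprogrammed mammary 1 or reprogrammed mammary 2. The share of all features called in each of these fits is not given here, so the counts show no change particular to these genes. All of these comparisons share arrays with others, so their calls are not independent.

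**Figure D3:**
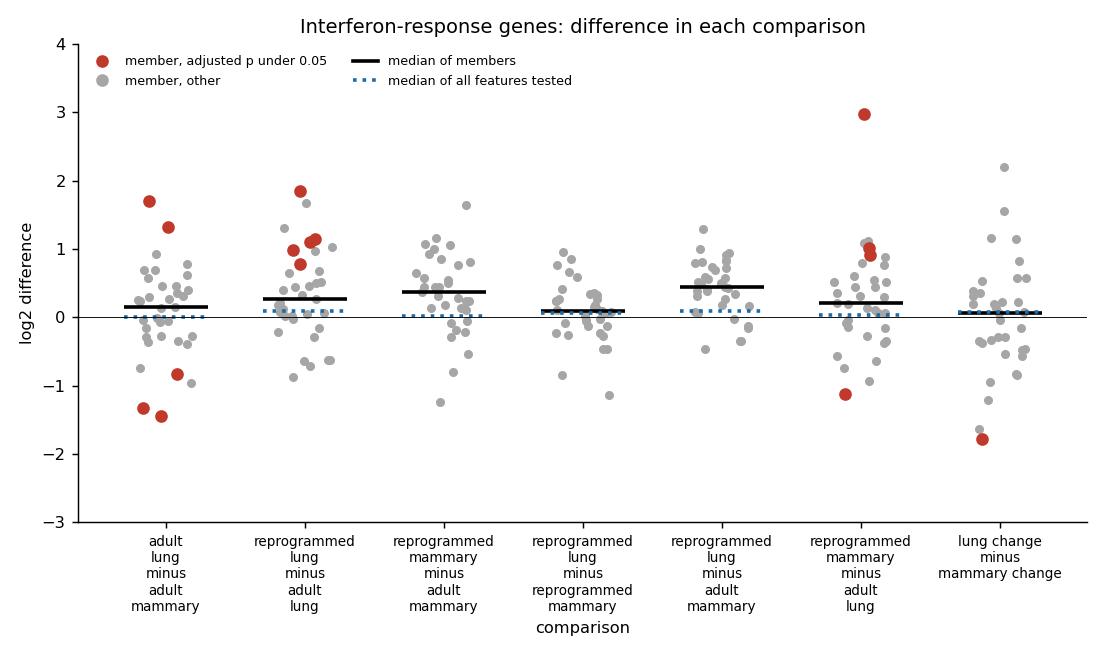
Log2 difference of each of the 35 genes in the 6 comparisons and in the difference between the lung and mammary changes (grey, or red where the adjusted p was under 0.05), with the median of the genes (black) and of all features tested (dotted blue). Red points number 5, 5, 0, 0, 0, 4 and 1 from left to right.

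Transcription factors carry the signal to the induced genes. Irf7, which amplifies type I interferon production, stood at -0.62, -0.70 and -0.81 in adult lung and at 0.71, 0.38 and 0.22 in reprogrammed lung. In adult mammary it was 0.14, -0.73 and -0.52 and in reprogrammed mammary 0.04, 0.72 and -0.15. All reprogrammed arrays lay above all adult lung arrays, while the mammary groups overlapped. Irf7 was higher by 1.15 ± 0.28 in reprogrammed lung than in adult lung (SE, n = 3 and 3; adjusted p = 0.0134, limma) and by 0.91 ± 0.28 in reprogrammed mammary than in adult lung (adjusted p = 0.0346, limma). The first call was lost when the slide was a fixed block (1.15, adjusted p = 0.0511), and it was kept with the slide as a random block. Within the 3 slides that held both groups the difference was 1.00, 1.52 and 0.93. The second ended when any 1 adult lung array, reprogrammed mammary 1 or reprogrammed mammary 2 was left out, and with the slide as a block (0.99, adjusted p = 0.172).

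Irf1, the factor that IFN-gamma induces, was 4.19, 3.70 and 3.65 in adult lung, 4.17, 3.47 and 3.50 in adult mammary, 3.70, 4.65 and 4.51 in reprogrammed lung and 3.84, 4.35 and 3.66 in reprogrammed mammary. For this probe, the brightest, all 4 ranges overlapped. A second Irf1 probe was 4.21, 4.09 and 4.48 in reprogrammed lung, above every adult array of either organ. In a fit over single probes it was higher there by 0.83 ± 0.29 than in adult lung (adjusted p = 0.0618, limma). Against adult mammary the difference was 0.85 ± 0.29 (adjusted p = 0.333, limma). Neither Irf1 probe passed in any comparison. Stat2, a partner of IRF9, was -2.32, -2.34 and -2.28 in adult lung, -2.82, -3.16 and -3.05 in adult mammary, -1.82, -3.36 and -2.39 in reprogrammed lung and -3.07, -2.41 and -3.15 in reprogrammed mammary. Adult lung lay above adult mammary without overlap, by 0.70 ± 0.34, which missed the threshold (adjusted p = 0.160, limma). Irf9, the DNA-binding partner of STAT2, was 2.24, 2.02 and 1.85 in adult lung, 1.63 and 1.94 in adult mammary, 1.55 and 2.66 in reprogrammed lung and 2.22 and 2.24 in reprogrammed mammary. Its spot was an outlier on 1 array of each of the last 3 groups, and Irf9 passed in no comparison.

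The sensors recognise foreign nucleic acid or act on RNA. Dhx58, the helicase LGP2, was -2.30, -2.26 and -1.88 in adult lung, -2.01, -2.50 and -1.81 in adult mammary, -0.25, -1.58 and -1.51 in reprogrammed lung and -0.84, -0.49 and -1.78 in reprogrammed mammary. Every reprogrammed array lay above every adult one. The difference within mammary, 1.07 ± 0.41 (adjusted p = 0.421, limma), and that within lung, 1.04 ± 0.41 (adjusted p = 0.0972, limma), missed the threshold. Zbp1, a sensor of Z-form nucleic acid, was 1.85, 1.44 and 1.50 in adult lung, 1.06, 0.57 and 1.41 in adult mammary, 1.98, 1.70 and 0.62 in reprogrammed lung and 0.22, 0.54 and 0.66 in reprogrammed mammary. Reprogrammed mammary lay below adult lung without overlap, lower by 1.12 ± 0.34 (adjusted p = 0.0342, limma), a call that ended when any 1 array of either group was left out and with the slide as a block (adjusted p = 0.177). No comparison called Ifih1, Eif2ak2, Adar or Trim25.

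Among the antiviral effectors, the IFIT proteins bind foreign RNA. Ifit3 was 3.07, 3.72 and 3.41 in adult lung, 2.28, 1.53 and 1.28 in adult mammary, 2.33, 1.97 and 3.30 in reprogrammed lung and 2.45, 2.79 and 2.15 in reprogrammed mammary. The adult groups did not overlap, and both reprogrammed groups overlapped adult mammary, and reprogrammed lung overlapped adult lung as well. Ifit3 was 3.25-fold higher in adult lung than in adult mammary (1.70 ± 0.37 in log2, SE, n = 3 and 3; adjusted p = 0.00676, limma), and no alternative tried ended that call. On the 1 slide that held both groups the difference was 1.54. Ifit2 was -0.34, -0.20 and -0.49 in adult lung, -0.50, -0.65 and -1.24 in adult mammary, -1.31, -0.48 and -1.10 in reprogrammed lung and -0.95, -1.26 and -1.04 in reprogrammed mammary. It passed in no comparison. In a fit over single probes, a second Ifit2 probe was lower by 0.81 ± 0.17 in reprogrammed mammary than in adult lung (adjusted p = 0.00555, limma), where the chosen probe was lower by 0.74 (adjusted p = 0.0541, limma).

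OAS enzymes make the messenger that activates RNase L. Oas1a was -1.19, -0.95 and -0.91 in adult lung, -0.36, -0.85 and -0.67 in adult mammary, 0.19, -0.48 and 0.19 in reprogrammed lung and -0.44, 0.33 and -0.55 in reprogrammed mammary. Reprogrammed lung lay above adult lung without overlap, by 0.98 ± 0.27 (adjusted p = 0.0252, limma). That call ended in 11 of 26 alternatives, among them those without any 1 adult lung array, reprogrammed lung 1 or reprogrammed lung 4, centring on the array median, array weights and the fit of both lung groups alone. Under normexp the difference was 0.62 (adjusted p = 0.144). Oasl1, which in mouse represses the translation of Irf7, was -3.17, -2.83 and -2.56 in adult lung, -0.76, -1.23 and -2.25 in adult mammary, -0.84, -2.31 and -2.51 in reprogrammed lung and -3.03, -2.11 and -2.81 in reprogrammed mammary. Adult lung was lower than adult mammary by 1.44 ± 0.49 (adjusted p = 0.0495, limma). This call was lost in 14 of 26 alternatives, among them those without any 1 adult lung or reprogrammed mammary array, adult mammary 1, adult mammary 2 or reprogrammed lung 3. Under normexp the difference was 0.44 lower (adjusted p = 0.408).

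Oasl2, a relative with a ubiquitin-like tail, was -0.90, -0.60 and -0.33 in adult lung, -0.44, -0.79 and -1.38 in adult mammary, 0.23, -0.07 and -0.02 in reprogrammed lung and -0.10, 0.68 and -0.76 in reprogrammed mammary. Reprogrammed lung lay above both adult groups, and Oasl2 passed in no comparison. Oas2, another OAS enzyme, was -6.17, -4.90 and -4.38 in adult lung, -4.18, -4.01 and -5.03 in adult mammary, -2.64, -4.40 and -4.49 in reprogrammed lung and -4.40, -2.96 and -5.43 in reprogrammed mammary, and it was well above background on 1 of the 3 adult lung arrays. No comparison called Ifit1, Oas2, Oas3, Rsad2, Bst2 or Ifitm3.

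Isg15, a ubiquitin-like protein attached to other proteins, was -1.07, -0.90 and -1.01 in adult lung, -0.17, -1.01 and -0.98 in adult mammary, -0.49, -0.70 and -0.42 in reprogrammed lung and -0.50, -0.22 and -0.73 in reprogrammed mammary. Both reprogrammed groups lay above adult lung without overlap. The differences were 0.46 ± 0.24 (adjusted p = 0.206, limma) and 0.51 ± 0.24 (adjusted p = 0.148, limma), and neither passed. Usp18, the protease that removes ISG15, was -1.07, -0.93 and -1.02 in adult lung, -1.56, -2.19 and -2.03 in adult mammary, -0.13, -2.16 and -0.68 in reprogrammed lung and -1.02, -0.90 and -1.33 in reprogrammed mammary, and it passed in no comparison.

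The GTPases act on the vacuoles of intracellular pathogens. Iigp1 was -2.76, -1.93 and -1.79 in adult lung, -0.23, -1.02 and -1.25 in adult mammary, -0.43, -0.16 and -0.36 in reprogrammed lung and 0.76, 1.12 and 0.58 in reprogrammed mammary. The adult lung arrays lay below every other array and the reprogrammed mammary arrays above every other, while adult mammary and reprogrammed lung, next to each other in the order of means, overlapped. Iigp1 was 7.88-fold higher in reprogrammed mammary than in adult lung (2.98 ± 0.32 in log2, SE, n = 3 and 3; adjusted p = 0.000122, limma) and 3.59-fold higher in reprogrammed lung than in adult lung (1.84 ± 0.32; adjusted p = 0.00217, limma). No alternative tried ended either call. Under normexp the first was 1.90 (adjusted p = 0.00113) and the second 1.01 (adjusted p = 0.0479).

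Adult lung was 2.51-fold below adult mammary for Iigp1 (1.33 ± 0.32 lower in log2; adjusted p = 0.0105, limma). This call was lost under normexp (0.55 lower, adjusted p = 0.183) and when the slide was a block (1.52 lower, adjusted p = 0.0601). Within slides, reprogrammed lung exceeded adult lung by 2.60, 1.35 and 1.57, and reprogrammed mammary exceeded adult mammary by 0.98 and 1.83. The test of whether the lung and mammary changes differ gave 0.19 ± 0.45 (adjusted p = 0.828, limma).

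**Figure D4:**
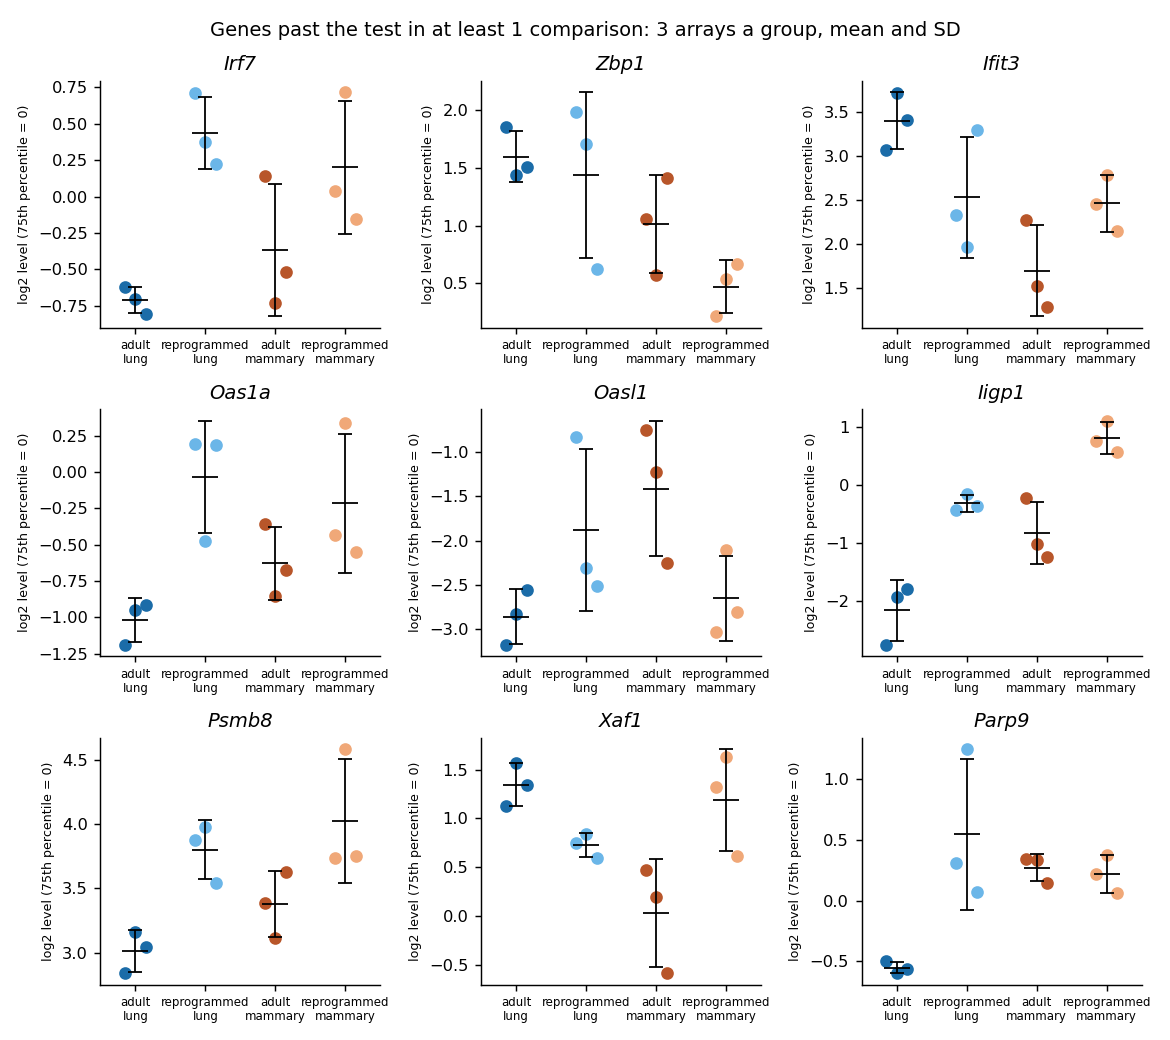
Log2 level of the 9 genes that passed in at least 1 comparison, on each array (dots, 3 a group), with the mean and SD (black). For Iigp1 the adult lung dots lie below and the reprogrammed mammary dots above all others, and for Ifit3 the adult lung dots lie above all adult mammary dots.

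The other GTPases, which IFN-gamma strongly induces, are Igtp, Irgm1, Gbp2 and Gbp3. Igtp was 0.08, 1.01 and 0.95 in adult lung, 0.18, 0.43 and 0.22 in adult mammary, 1.14, 0.98 and 1.11 in reprogrammed lung and 0.42, 2.78 and 0.42 in reprogrammed mammary. Irgm1 was 1.00, 1.25 and 1.18 in adult lung, 1.44, 0.70 and 0.56 in adult mammary, 1.03, 1.75 and 1.44 in reprogrammed lung and 0.80, 2.50 and 1.04 in reprogrammed mammary. Gbp2 was 0.65, 0.77 and 0.64 in adult lung, 0.97, 0.42 and -0.39 in adult mammary, -0.26, -0.60 and 0.80 in reprogrammed lung and 0.21, 2.03 and 0.24 in reprogrammed mammary. All 3 were highest on reprogrammed mammary 2. The same array had the highest level of Ifng, the gene of IFN-gamma (2.27, against at most 0.62). No comparison called Igtp, Irgm1, Gbp2, Gbp3 or Ifng.

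The antigen-processing genes make and carry the peptides shown on class I molecules. Psmb8, an immunoproteasome subunit, was 2.84, 3.16 and 3.04 in adult lung, 3.39, 3.11 and 3.63 in adult mammary, 3.88, 3.98 and 3.54 in reprogrammed lung and 3.74, 4.59 and 3.76 in reprogrammed mammary. Both reprogrammed groups lay above adult lung without overlap, by 1.01 ± 0.25 for mammary (adjusted p = 0.0139, limma) and 0.79 ± 0.25 for lung (adjusted p = 0.0470, limma). The former was lost without adult lung 1 and with the slide as a block (adjusted p = 0.112), and the latter in 20 of 26 alternatives, including each of 10 arrays left out in turn, all but reprogrammed lung 4 and reprogrammed mammary 2. A second Psmb8 probe gave 0.98 (adjusted p = 0.0257, limma) and 0.62 (adjusted p = 0.141, limma). Psmb9, another such subunit, was 1.44, 1.78 and 1.78 in adult lung, 0.96, 0.64 and 1.56 in adult mammary, 2.36, 1.96 and 1.33 in reprogrammed lung and 1.75, 3.00 and 1.58 in reprogrammed mammary. Tap1, a peptide transporter, was -0.75, -0.18 and -0.32 in adult lung, -1.33, -1.06 and -0.93 in adult mammary, 0.13, -0.30 and -0.92 in reprogrammed lung and -0.44, 0.71 and -0.59 in reprogrammed mammary. Both were highest on reprogrammed mammary 2, and no comparison called either.

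Of the 8 GTPase and antigen-processing genes, 7 were highest on reprogrammed mammary 2, and Gbp3 was highest on reprogrammed lung 1. Over the class, 11 of 33 genes with a value on every array (33.3%) were highest on reprogrammed mammary 2, against 3.69% of 24196 features. Reprogrammed lung 1 was the highest array for 27.3% of the genes and 32.3% of all features. Leukocyte markers were high on these arrays, though not on these alone. On reprogrammed mammary 2 the summed signal was 23.4 for 4 general leukocyte markers and 28.0 for 11 T and NK cell markers, against 5.16 and 5.65, and 2.63 and 1.32, on the other arrays of its group. Adult mammary 4 had sums of 16.9 and 19.2, and it was the highest array for 0 of the 33 genes and 6.68% of all features. For 8 B cell markers the sum was 114 on reprogrammed lung 1, 19.5 on reprogrammed mammary 2 and 10.0 on adult mammary 4. Over the groups the leukocyte sum was 7.75 to 12.5 in adult lung, 1.70 to 16.9 in adult mammary, 1.95 to 71.4 in reprogrammed lung (highest on array 1) and 5.16 to 23.4 in reprogrammed mammary. For the T and NK markers it was 7.28 to 11.5, 1.27 to 19.2, 1.19 to 22.5 and 1.32 to 28.0. All 4 leukocyte markers were above background on every array and at least 7 of the 11 T and NK markers, and their part in the result was not tested.

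**Figure D5:**
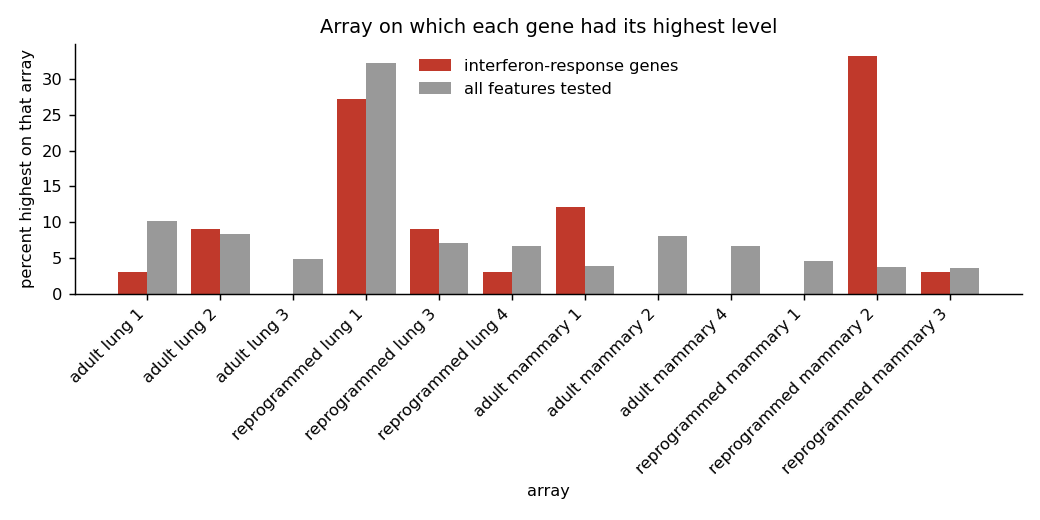
Percent of the 33 interferon-response genes (red) and of all 24196 features (grey) whose highest level was on each array. On reprogrammed mammary 2 the bars reach 33.3% and 3.69%, and on reprogrammed lung 1 they reach 27.3% and 32.3%.

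Xaf1, a gene linked to apoptosis, and Parp9, a partner of the ubiquitin ligase DTX3L, were the remaining called genes. Xaf1 was 1.13, 1.56 and 1.34 in adult lung, 0.48, 0.20 and -0.59 in adult mammary, 0.75, 0.84 and 0.59 in reprogrammed lung and 1.33, 1.63 and 0.61 in reprogrammed mammary. Adult lung lay above adult mammary without overlap, by 1.32 ± 0.31 (adjusted p = 0.0103, limma), a call lost when the slide was a block (0.98, adjusted p = 0.0681). From adult to reprogrammed the difference was -0.62 in lung and 1.16 in mammary, and neither passed. The test of the lung change minus the mammary change gave -1.78 ± 0.44 (adjusted p = 0.0258, limma). Xaf1 was the only 1 of 35 genes to pass it, where 12.8% of all features did (7.41% higher and 5.39% lower), and the call was lost when adult lung 2, adult lung 3, reprogrammed mammary 1 or reprogrammed mammary 2 was left out. Without adult mammary 1, adult mammary 4 or reprogrammed lung 1 it was passed by 2 genes, and without reprogrammed lung 4 by 5. The share of all features that passed in those fits is not given here.

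Parp9 was -0.50, -0.59 and -0.56 in adult lung, 0.34, 0.34 and 0.14 in adult mammary, 0.31, 1.25 and 0.07 in reprogrammed lung and 0.22, 0.38 and 0.06 in reprogrammed mammary. The adult lung arrays lay below all others. Parp9 was 1.10 ± 0.26 higher in reprogrammed lung than in adult lung (adjusted p = 0.0130, limma) and 0.82 ± 0.26 lower in adult lung than in adult mammary (adjusted p = 0.0401, limma). The first call was lost when centring on the array median (0.95, adjusted p = 0.0620) and when the fit held adult and reprogrammed lung alone (1.10, adjusted p = 0.0888), and the second in 13 of 26 alternatives, among them those without any 1 array of adult lung, adult mammary or reprogrammed mammary. No comparison called Ifi35 or Ifi44.

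Upstream of the class, 4 of 9 ligands, 5 of 6 receptors and 10 of 10 signalling genes on the lists were tested. The shares of all features that passed, against which the counts of these short lists are to be read, were 28.5% in adult lung against adult mammary, 23.4% in reprogrammed against adult lung and 26.1% in reprogrammed mammary against adult lung. None of the ligands passed in any comparison, and at most 1 had an unadjusted p under 0.05 in any of them. Of the receptors, Ifnar1 (0.77 ± 0.22, adjusted p = 0.0251, limma) and Ifnar2 (0.53 ± 0.17, adjusted p = 0.0369, limma), which pair to bind type I interferon, were higher in adult lung than in adult mammary. Ifngr1, a chain of the IFN-gamma receptor, was lower in reprogrammed mammary than in adult lung by 0.93 ± 0.25 (adjusted p = 0.0193, limma). In adult lung against adult mammary, 2 signalling genes were higher, Irf2 (1.04 ± 0.31, adjusted p = 0.0271, limma) and Irf3 (0.56 ± 0.15, adjusted p = 0.0180, limma), and 2 lower, Jak2 (1.03 ± 0.22, adjusted p = 0.00620, limma) and Socs1, at least 2.88-fold lower (adjusted p = 0.0495, limma). That makes 4 of 10 signalling genes and 2 of 5 receptors where 12.5% of all features were higher and 15.9% lower. No adult lung array was well above background for Socs1, and its adjusted p tests the measured difference, not the bound. In the same comparison 1 of 7 detection genes, the RNA receptor Tlr3 (1.23 ± 0.32, adjusted p = 0.0167, limma), and 1 of 9 class I presentation genes, the immunoproteasome subunit Psmb10 (1.21 ± 0.22, adjusted p = 0.00227, limma), were higher, and 1 of 3 chemokines, Cxcl10 (2.36 ± 0.65, adjusted p = 0.0211, limma), was lower. Tlr3 was well above background on only 1 of the 3 adult mammary arrays, and with the floor used for the dim arrays its difference was at least 1.04.

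From adult to reprogrammed lung 3 of 10 signalling genes rose and 0 fell, where 14.1% of all features rose and 9.31% fell. Jak2, a JAK kinase, was -0.90, -0.74 and -0.46 in adult lung and 0.09, 0.19 and 0.67 in reprogrammed lung, a difference of 1.01 ± 0.22 (adjusted p = 0.00768, limma). Socs3, a feedback inhibitor, differed by 0.94 ± 0.29 (adjusted p = 0.0386, limma). Socs1, another such inhibitor, was not well above background on any adult lung array and was at least 4.88-fold higher in reprogrammed lung (adjusted p = 0.0116, limma), taken as the bright group's mean over the adult lung floor. For Socs1 the adjusted p, here and below, is that of the measured difference and not of the bound. In reprogrammed mammary against adult lung the same 3 genes passed, all higher: Jak2 (1.11 ± 0.22, adjusted p = 0.00405, limma), Socs3 (1.18 ± 0.29, adjusted p = 0.0120, limma) and Socs1, at least 5.12-fold (adjusted p = 0.00901, limma). Of all features, 14.9% were higher and 11.2% lower.

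Of 3 interferon-induced chemokines tested, 2 that attract T cells rose from adult to reprogrammed lung, where 14.1% of all features rose. Cxcl10 was -2.16, -1.94 and -1.86 in adult lung and 1.21, 0.26 and 1.28 in reprogrammed lung, 2.91 ± 0.65 higher (adjusted p = 0.00900, limma). Cxcl9 was -3.41, -3.77 and -3.18 and 0.50, 0.81 and -0.96, a difference of 3.57 ± 1.08 (adjusted p = 0.0368, limma). Neither had groups that overlapped. Of 7 detection genes tested, 1 rose, Myd88, an adaptor of Toll-like receptors (0.99 ± 0.27, adjusted p = 0.0237, limma), and of 9 class I presentation genes 1, Tap2, the partner of TAP1 (0.90 ± 0.21, adjusted p = 0.0124, limma). In reprogrammed mammary against adult lung, higher were Cxcl10 (2.19 ± 0.65, adjusted p = 0.0309, limma), Myd88 (1.06 ± 0.27, adjusted p = 0.0154, limma), Tap2 (1.16 ± 0.21, adjusted p = 0.00281, limma) and the proteasome activator subunit Psme1 (0.67 ± 0.16, adjusted p = 0.0118, limma), and Tlr3 (1.11 ± 0.32, adjusted p = 0.0276, limma) was lower. Tlr3 was well above background on only 2 of the 3 reprogrammed mammary arrays, and with the floor used it was at least 0.85 lower. Of these lists, Psmb10 alone passed the test of the lung change minus the mammary change (-1.17 ± 0.31, adjusted p = 0.0327, limma). That test was passed by 12.8% of all features (7.41% higher and 5.39% lower). Of 6 class II genes, 0 passed (limma) in any comparison, and 0 had an unadjusted p under 0.05.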

How the data were processed

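RNA of 12 samples was amplified, labelled with Cy3 and hybridised to 1-colour Agilent mouse arrays. Per the file headers, the deposited intensity values (processed signal) came from Agilent Feature Extraction, 10.5.1.1, which subtracts background; the submitters' processing notes name 10.1. The authors' deposited series matrix (log2 values) was used as an alternative. Outlier-flagged spots were left out, spots of a probe averaged, and log2 signal taken minus each array's 75th percentile. Probes were named by RefSeq accession (24836 of 41174 had 1 symbol). The brightest probe stands for a gene. Features well above background on all 3 arrays of at least 1 group (24497 of 32679) were tested with limma 3.58.1 (R 4.3.3), fitting 4 group means to 12 arrays (8 residual degrees of freedom), Benjamini-Hochberg adjusted at 0.05. The number of arrays limits the precision.

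The members and lists were chosen with earlier results of these data known. Named with statistics are all members past the threshold (with none, the 5 smallest p). Given on every array are Irf1, Irf7, Irf9, Stat2, the 12 members of smallest overall p and any that leads a sentence. The 5 slides were told apart by their barcodes. Replicate numbers were not used to pair the arrays in the reported fit. For arrays of the same number, deviations from the group means correlated at -0.53 to 0.33. With no values for unlike numbers beside them, these correlations cannot show whether the numbers pair the arrays. The scripts were tested on simulated data. Normexp, an alternative, used the median signal, since the mean signal is not in the files used.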

Additional observations from a re-analysis of the deposited data

Results flagged for a closer look

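Xaf1 was singled out because the difference between reprogrammed and adult arrays was unlike for the 2 organ names. The lung change minus the mammary change was -1.78 on the log2 scale (adjusted p = 0.0258, limma, 3 arrays a group). Of all features 12.8% passed this test, against 1 of the 35 genes, and the Xaf1 call was lost in 5 of 25 alternatives. Reprogrammed lung was 0.62 below adult lung and reprogrammed mammary 1.16 above adult mammary, and neither difference passed alone. Adult lung lay above adult mammary by 1.32, while the 2 reprogrammed groups overlapped. The labels do not show that these are changes of 1 organ. The cause was not tested.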

How the results depend on the processing

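The 26 alternatives were 14 other settings and 12 fits that left out 1 array each; a fit of only the groups compared is the same as the reported one for the lung change minus the mammary change, which uses all 4 groups. Directions of the named genes did not reverse. Where the slide is called a block, each slide had a fixed term in the fit. Slide as a random block was also among the settings, and none of the calls said to be lost with the slide as a block was lost there. For adult lung against adult mammary (5 genes called), 3 were called with normexp, with no filter on dim probes and with slide entered as a block (median -0.21), and 8 with array weights and with only the groups compared. For reprogrammed against adult lung (5), 2 were called when centring on the array median (median 0.12) and with only the groups compared, and 3 without adult mammary 4 and reprogrammed lung 1 together. Array weights gave 1 call between the mammary groups (0). For reprogrammed mammary against adult lung (4), 2 were called with normexp, with no filter and when slide was entered as a block, 7 with a mean-variance trend, 8 without adult mammary 4 and reprogrammed lung 1 together, 13 with only the groups compared and 15 with array weights. For the lung change minus the mammary change (1), 2 were called with the authors' series matrix and without those 2 arrays, and 4 with array weights. The share of all features called under each alternative is not given here, so such counts show no change particular to these genes. In reprogrammed minus adult lung the median of all features was 0.10, and -0.05 when centring on the array median. The cause was not tested.

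With the replicate number as a block, 5, 3, 0, 0, 0, 2 and 0 genes were called in the order of the comparisons given (adult lung minus adult mammary; reprogrammed minus adult lung; reprogrammed minus adult mammary; reprogrammed lung minus reprogrammed mammary; reprogrammed lung minus adult mammary; reprogrammed mammary minus adult lung; lung change minus mammary change). Whether arrays of the same number share an origin is not known. Leaving out 1 array gave 3 to 5, 3 to 6, 0 to 0, 0 to 1, 0 to 0, 1 to 9 and 0 to 5 calls, and medians of 0.04 to 0.25, 0.17 to 0.33, 0.14 to 0.47, -0.02 to 0.23, 0.38 to 0.59, -0.03 to 0.41 and -0.31 to 0.25. Where that left 2 arrays in a group, the spread was pooled over groups. Signal over background limits Oas2 and Socs1 in adult lung and Tlr3 and Ifng in adult mammary. It also limits Tlr3 and Ifng in reprogrammed lung and Tlr3 and Oas2 in reprogrammed mammary.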
